A study of Mus musculus with 2 samples.

Results

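Macrophages with little or no RNA of Clec4f, the C-type lectin that marks resident Kupffer cells, but with RNA of Gpnmb, Ms4a7 or Spp1 were described in 2 single-cell libraries of mouse liver. The members were chosen from the measured counts themselves. Barcodes entered with 500 UMIs (unique molecular identifiers, 1 per captured transcript) or more, 200 genes or more and a mitochondrial share of no more than 20%. A member then needed at least 1% of its UMIs from C1qa, C1qb and C1qc together, at least 3000 UMIs in all, less than 0.05% of UMIs from Clec4f, under 5 UMIs of the division genes Mki67 and Top2a, and at least 3 UMIs of Gpnmb, Ms4a7 and Spp1 together. These conditions left 169 of 3937 kept barcodes, 156 of 3275 control and 13 of 662 GS-KO barcodes. Values of the genes in the rule, and any comparison of members with other cells, therefore describe the selection and were given no test.

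Both libraries came from tumour-bearing mice with floxed Glul (Glulf/f), the gene for glutamine synthetase (GS), in a study of β-catenin-mutant hepatocellular carcinoma. AAV8-GFP went to the mouse called control here and AAV8-Cre to the one called GS-KO, both 7 weeks ahead of collection. AAV8, an adeno-associated virus, reaches mainly hepatocytes. The liver was digested with collagenase, and from the supernatant of the first spin dead cells were removed and cells carrying F4/80, a macrophage surface protein, were enriched on beads. The promoter of the vector, the way tumours were raised, the mice's age and the deleted stretch of Glul were not given in the sources used here. There was 1 mouse per group, so a difference between the libraries has no replicate check, and effects of the mouse or its preparation cannot be told apart from those of the virus. All intervals below are 95% intervals that cover counting error only.

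Liver macrophages comprise resident Kupffer cells, which carry Clec4f, Vsig4, Timd4, Cd5l and Marco, and macrophages that arise from blood monocytes and take up residence near bile ducts, in injured tissue or in tumours. A lipid-handling state of such macrophages, often called lipid-associated, is known by Trem2, Gpnmb, Spp1, Cd9 and Fabp5. Gpnmb is a membrane glycoprotein of lysosomes and phagosomes, Ms4a7 a membrane protein of the tetraspanning MS4A family found in macrophages of monocyte origin, Spp1 the secreted matrix protein osteopontin, Fabp5 a fatty acid carrier and Trem2 a receptor for lipids and cell debris.

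The control members held 2914198 UMIs and the GS-KO members 186504, with a median of 17558 and 16733 UMIs per cell. In all, the libraries held 64770011 and 8805330 UMIs. Members made up 4.76% (4.06 to 5.55) of kept control barcodes and 1.96% (1.05 to 3.33) of kept GS-KO barcodes. Among non-dividing C1q cells of at least 3000 UMIs they were 14.3% (12.2 to 16.5) of 1094 control cells and 19.1% (10.6 to 30.5) of 68 GS-KO cells. The share was lower in the GS-KO library over one denominator and higher over the other, and the bead enrichment can set both denominators. When each cell was thinned to 3000 UMIs before the rule was applied, the second share was 8.06% (90 of 1117 cells; 6.53 to 9.81) for control and 11.6% (8 of 69; 5.14 to 21.6) for GS-KO cells, so the intervals overlapped. The libraries shared 1 barcode sequence, and 0 among kept barcodes.

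Most of the cells near the edges of the rule were near its count of 3 UMIs. In the control library 27 members held 3 to 5 UMIs of Gpnmb, Ms4a7 and Spp1 together, while 42 cells that met every other condition held 1 or 2 and stayed outside. A further 64 members held at least 20. Clec4f was at 0.02 to 0.05% of UMIs in 11 control members, and 10 cells with at least 3 UMIs of the rule's genes lay just outside at 0.05 to 0.1%. The C1q share was 1 to 1.2% in 13 control members and 0.8 to 1% in 7 cells outside. Clec4f itself had 0 UMIs in 100 of 156 control members and in 13 of 13 GS-KO members.

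Ms4a7 carried most cells into the group. At least 3 Ms4a7 UMIs were present in 150 of 156 control members and 13 of 13 GS-KO members, and Ms4a7 was the only gene of the rule at that level in 91 and 9 of them. Gpnmb reached 3 UMIs in 59 control members (37.8%, 30.2 to 45.9) and 4 GS-KO members, and had 0 UMIs in 83 and 7. Spp1 reached 3 UMIs in 19 control members, 16 of which also had at least 3 Gpnmb UMIs, and in 1 GS-KO member, which also had Gpnmb. The label that joins Gpnmb and Ms4a7 thus fits 57 of 156 control and 4 of 13 GS-KO members at 3 UMIs of each, while the 91 and 9 cells with Ms4a7 alone outnumbered them.

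**Figure D1:**
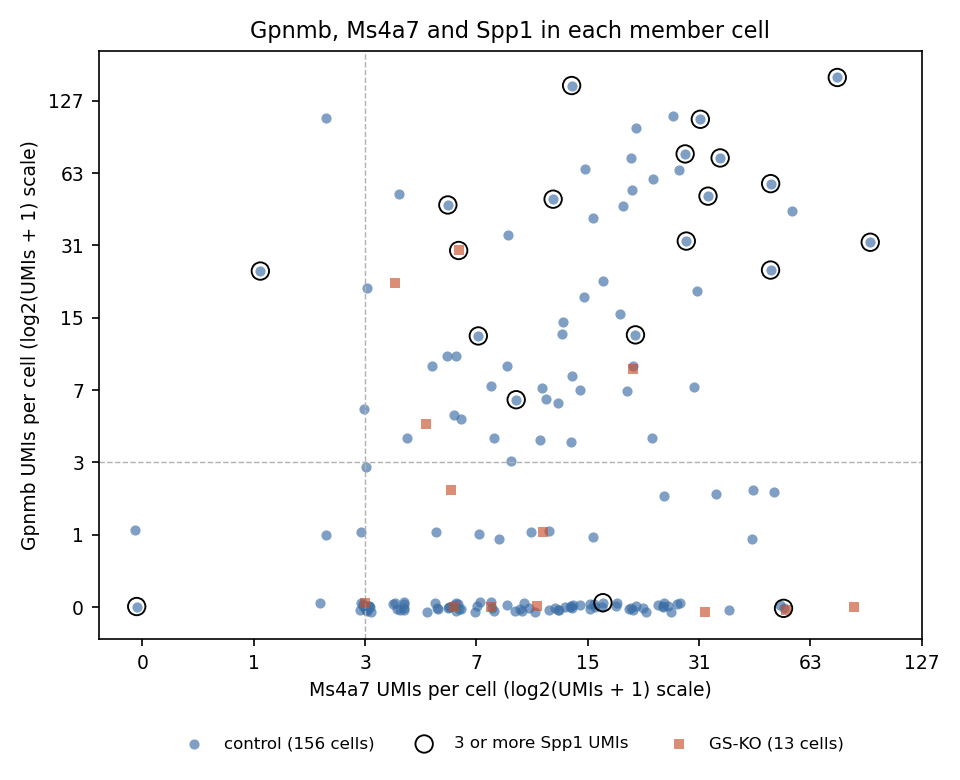
Each point is 1 member cell, placed by its Ms4a7 UMIs (horizontal) and Gpnmb UMIs (vertical), both on a log2(UMIs + 1) scale with slight random displacement; black rings mark cells with 3 or more Spp1 UMIs and dashed lines 3 UMIs. A band of 83 control and 7 GS-KO cells lies at 0 Gpnmb over a wide range of Ms4a7, and the ringed cells lie mostly in the upper right.

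Across cells, control members held 0 to 152 Gpnmb UMIs and 0 to 88 Ms4a7 UMIs with medians of 0 and 11.5, and GS-KO members 0 to 29 and 3 to 83 with medians of 0 and 8. The 5 genes of the label were all present in the summed RNA of the members. Levels are given as CPM, the UMIs of a gene per 1000000 UMIs summed over the cells of a library. Gpnmb (chr6:49036546-49070929, plus strand, GRCm38) stood at 691 CPM (661 to 722) in control members and 365 (283 to 462) in GS-KO members. Ms4a7 (chr19:11321039-11336146, minus strand) stood at 808 and 1335 CPM, and GS-KO member 4 alone held 33.3% of the latter. Spp1 (chr5:104435118-104441050, plus strand) stood at 74.5 CPM in control members, and all 28 GS-KO UMIs came from 1 cell.

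Fabp5 and Trem2 belong to the label but not to the rule. Fabp5 (chr3:10012548-10016607, plus strand) stood at 2262 CPM in control and 1893 in GS-KO members, and had a UMI in 132 of 156 and 13 of 13 cells. Its median was 8 UMIs per cell in each library, with up to 527 in a control and 125 in a GS-KO cell. Trem2 (chr17:48346401-48354147, plus strand) stood at 1137 and 836 CPM and had a UMI in 131 and 13 cells. In control B cells, which should lack them, Fabp5 was at 22 and Trem2 at 8.60 CPM. With each cell thinned to 3000 UMIs, 65.4% of control and 92.3% of GS-KO members had a Fabp5 UMI against 4.05% of control B cells, and 75% and 76.9% had a Trem2 UMI against 2.53%. Both genes were thus above the level seen in a cell type that should lack them, whose median depth was 3846 UMIs.

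To show where members differ from neighbouring cells, they were set beside 2 groups that met every other condition of the rule. Clec4f-positive macrophages had at least 0.05% Clec4f with no limit on the other genes (789 control and 45 GS-KO cells). Clec4f-low cells under 3 UMIs of the rule's genes numbered 149 and 10. Of the control Clec4f-positive cells 183 also held at least 3 UMIs of Gpnmb, Ms4a7 and Spp1, against 1 of the GS-KO cells, so this first comparison group was itself mixed in the control.

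Against Clec4f-positive cells, members had more RNA of Cd93, a receptor of monocytes, endothelium and some macrophages: control cells had 192 against 6.03 CPM, a ratio of 31.9 (25.6 to 40.1), and GS-KO cells 268 against 37.5 CPM, a ratio of 7.14 (4.47 to 11.6). Lat2, an adaptor of immune receptor signalling, was 28.6-fold (19.6 to 42.8) higher in the control, and Anxa1, an anti-inflammatory annexin, 18.9-fold (14.3 to 25.3) higher. Both were in many cells, 63 and 67 of the 156. Myo5a, an unconventional myosin that moves vesicles, was 13.2-fold higher (10.2 to 17.1). The G protein-coupled receptors Gpr34 and Gpr183, the transporter Slco2b1, the receptor subunit Ramp1 and the transcription factor Bhlhe41 were also higher, at ratios of 10.8 to 38.5 in the control and on 4 to 11 UMIs each in GS-KO members. H2-M2, a class Ib MHC gene, and Il7r, the interleukin 7 receptor, had ratios of 14.4 and 11.4 in the control, and each had its GS-KO UMIs in 1 cell.

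Syngr1, a vesicle membrane protein, was 9.41-fold (8.05 to 11) higher in control members and at least 39.8-fold higher in GS-KO members, where Clec4f-positive cells had 0 UMIs (a floor of 3 UMIs per library was used). Fabp5 was 4.6-fold (4.45 to 4.75) and 6.46-fold (5.47 to 7.64) higher, and Trem2 2.16-fold and 2.08-fold higher. Cx3cr1, the fractalkine receptor of monocytes and of some tissue macrophages, was 2.81-fold and 2.87-fold (2.22 to 3.69) higher. Lyz2, lysozyme, was 2.49-fold and 4.10-fold higher, and Gas6, a ligand that bridges dying cells to phagocyte receptors, 3.09-fold and 4.43-fold. Of genes tested, 5.78% (control) and 12.6% (GS-KO) were at least 1.5-fold higher in members.

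Kupffer cell genes were lower in members, beyond Clec4f itself. Of 21 such genes 16 were at least 1.5-fold lower among control cells, where 14.9% of all 11341 genes tested were, and 17 among GS-KO cells, where 26.4% were. The median log2 ratio of the list was -1.51 and -2.08, against -0.09 and -0.15 over all genes. Marco, a scavenger receptor, was at 15.1 against 134 CPM among control cells, 8.91-fold lower (6.61 to 12.3), and at 0 UMIs in GS-KO members, at least 8.21-fold lower. Cd163, the haemoglobin scavenger receptor, was 8.64-fold lower in the control. Vsig4, a complement receptor, was 4.87-fold lower among control and 3.07-fold lower among GS-KO cells.

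Cd5l, a secreted regulator of macrophage survival and lipid metabolism, differed more in size between the libraries. Control cells had 976 against 3934 CPM, 4.03-fold lower (3.88 to 4.19), and GS-KO cells 107 against 3857 CPM, 36.0-fold lower (23.2 to 59.0). Timd4, a receptor for dying cells, was 2.85-fold and 19.6-fold lower. The complement gene C6 was 10.5-fold and 9.5-fold lower, and the folate receptor Folr2 5.80-fold and 4.28-fold lower. Pcolce2, a collagen-processing cofactor, was 12.7-fold lower (9.42 to 17.5) in the control, Chp2 5.65-fold and Cdh5, a cadherin, 7.40-fold. Cdh5 is also among the endothelial genes, which were lower in members as well. In the control 9 of 9 were at least 1.5-fold lower (median -2.38), where 14.9% of all genes were. Among GS-KO cells 5 of 5 were (26.4% of all genes), 4 of them at 0 UMIs in members. Their median there was -5.46, or -1.48 with a floor of 3 UMIs. Clec4f-positive cells thus held more endothelial RNA, and its part in these differences was not tested. The chemokine Cxcl13 had 2 UMIs in control members against 920 in Clec4f-positive cells, 86.9-fold lower (24 to 718), and 0 against 4 UMIs in the other library. Icos, Ptgis, the prostacyclin synthase, and Prss29, a serine protease, were 24.7-fold, 17.3-fold and 7.77-fold lower in the control.

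**Figure D2:**
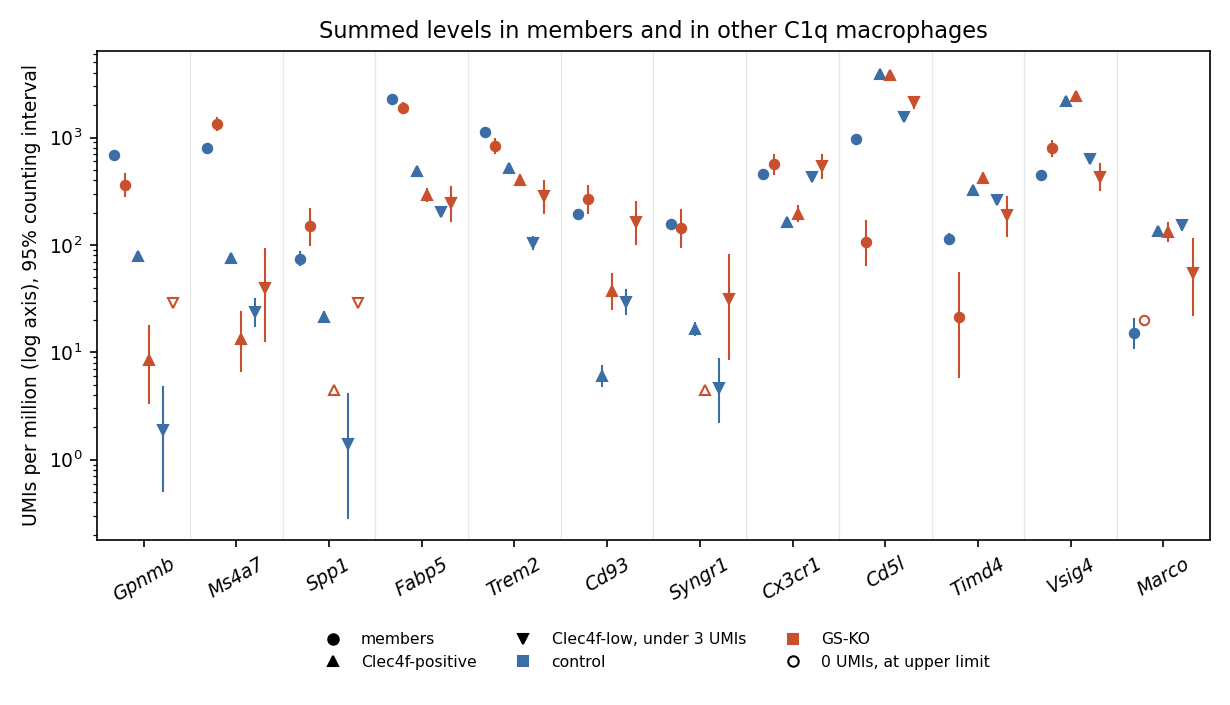
Summed levels (CPM, log axis) of 12 genes in members, Clec4f-positive cells and Clec4f-low cells under 3 UMIs of Gpnmb, Ms4a7 and Spp1, with 95% counting intervals; blue is control, red GS-KO, and open symbols mark 0 UMIs at their upper limit. Fabp5, Trem2, Cd93 and Syngr1 are highest in members among control cells, while Cd5l, Timd4, Vsig4 and Marco are highest outside them.

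Genes shared by all macrophages differed little. The pan-macrophage list had median log2 ratios of -0.04 and -0.09, although its member Csf1r, the growth factor receptor of macrophages, was at 0.671 times its level in Clec4f-positive control cells. Cd68, a lysosomal glycoprotein of macrophages, was at 1.13 times. The MHC class II list was at a median of 0.03 and 0.34. Genes of monocyte origin had a median of 0.76 in the control, with 8 of 15 at least 1.5-fold higher and 1 lower. Among the higher were Ccr2, the monocyte chemokine receptor, whose 44 UMIs lay in 14 member cells, S100a6 and Napsa. Among GS-KO cells 2 of 5 were higher and 1 lower (median 0.43). Of all genes 5.78% were higher and 14.9% lower in the control, and 12.6% and 26.4% among GS-KO cells. Against Clec4f-low cells without the genes of the rule, the same list went the other way. In the control 9 of 17 were lower and 1 higher (median -0.66), where 16% and 7.19% of all genes were. Among GS-KO cells 6 of 8 were lower and 1 higher (median -1.85), where 22.9% and 15.4% of all genes were. Against Clec4f-positive cells, the list of lipid-associated macrophage genes had 12 of 25 higher and 2 lower in the control (median 0.51). There 5.78% of all genes were higher and 14.9% lower. Among GS-KO cells 7 of 23 were higher and 4 lower (median 0.18), where 12.6% and 26.4% of all genes were. That list and the Kupffer list were drawn up with earlier results of these data known.

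The last condition of the rule separated cells that differed in more than its own genes. Against Clec4f-low control cells under 3 UMIs of Gpnmb, Ms4a7 and Spp1, members had 11-fold more Fabp5, 10.9-fold (9.48 to 12.5) more Trem2, 8.25-fold (5.47 to 13) more Itgax, the CD11c integrin, 5.63-fold more Cd63, a lysosomal tetraspanin, and 3.77-fold more Apoe, the lipid carrier. Of 25 lipid-associated genes 17 were at least 1.5-fold higher and 0 lower (7.19% of all genes were higher, 16% lower). In the GS-KO library 11 of 22 were higher (15.4% of all genes were, and 22.9% lower), with Fabp5 at 7.76-fold and Trem2 at 2.95-fold. Cx3cr1 did not separate these groups, at 457 against 430 CPM, a ratio of 1.06 (0.977 to 1.16). Fcna, the pattern-recognition protein ficolin A, was 6.36-fold lower in control members, the eotaxin receptor Ccr3 3.42-fold lower and the GDNF-family receptor Gfra2 6.78-fold lower. The cells left outside were also shallower, with a median of 12807 against 17558 UMIs; the part of depth in these differences was not tested.

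Members differed among themselves. The 59 control members with at least 3 Gpnmb UMIs (median 22957 UMIs per cell) were set against the 83 with 0 (median 14188). Cells with 0 Gpnmb could enter only through Ms4a7 or Spp1, so the sides also differ in how they met the rule. The part of this in the values of the split was not tested. The sides differ in depth too, and results after thinning are given at the end. Fabp5 had 4025 against 658 CPM, a ratio of 6.12 (5.70 to 6.58). It was in 100% of the first and 72.3% of the second cells, or in 98.3% and 43.4% after thinning to 3000 UMIs. Atp6v0d2, a proton pump subunit of lysosomes, was 6.22-fold higher (4.73 to 8.32) and Mgll, the lipase that splits monoglycerides, 6.35-fold higher (3.84 to 11.1). Syngr1 was 3.78-fold, the secretory kinase Fam20c 3.70-fold and the ubiquitin ligase Fbxo32 4.25-fold higher. Adam8, a metalloprotease, was 3.82-fold and Slamf7, an immune receptor, 4.06-fold higher. Lyz1 and Scgb1a1 headed the ranking too, but 62.0% and 93.8% of their UMIs lay in 1 cell.

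Cells with Gpnmb had more RNA of much of the lipid-associated list. Of its 25 other genes 15 were at least 1.5-fold higher and 1 lower, where 6.54% of all 7894 genes tested were higher and 17.3% lower (147 and 487 genes, or 1.86% and 6.17%, at 2-fold), and the list's median log2 ratio was 0.64 against -0.15 over all genes. Trem2 was at 1559 against 717 CPM (2.18-fold, 2.01 to 2.35). Lpl, lipoprotein lipase, was 1.78-fold, Itgax 1.90-fold, Apoe 1.55-fold and Lgals3, galectin 3, 1.55-fold higher. Members of the list that did not differ by that much were Plin2, a lipid droplet coat protein, at 1.07-fold, the fatty acid receptor Cd36 at 1.02-fold and the cholesterol exporter Abcg1 at 1.02-fold. Mmp12, macrophage elastase, was 1.58-fold lower. Cell by cell, the summed list had a median of 1102 UMIs per 10000 in cells with Gpnmb and 573 in cells without.

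Lysosomal genes, some of which such as Ctsd and Atp6v0d2 are also in the lipid-associated list, were unequal. Of 34 genes 7 were at least 1.5-fold higher and 2 lower, with a median of 0.31. Ctsd, cathepsin D, was at 7756 against 3804 CPM (2.04-fold, 1.97 to 2.11), Ctsl, cathepsin L, 1.94-fold, Psap, the precursor of the saposins, 1.72-fold and Lipa, the acid lipase of lysosomes, 1.59-fold higher. Ctsc, which activates granule proteases, was 2.47-fold lower (2.26 to 2.69). The lysosome list summed to a median of 441 UMIs per 10000 in cells with Gpnmb and 294 in cells without.

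Transcription factors of the MITF and TFE family drive lysosomal genes and Gpnmb in cultured cells and bind the E-box letters CACGTG or CATGTG. Their letters were therefore looked up on both strands in RefSeq promoters of GRCm38.p6, from 250 bases before to 50 after each start. CACGTG was in 10 of 26 lysosome genes with a promoter (38.5%) against 8.09% of 27025 genes, and CATGTG, which cannot overlap a CACGTG match, in 23.1% against 15.9%. In the lipid-associated list CACGTG was in 3 of 20 genes with a promoter and CATGTG in 2 of 20 (10%, below the share of all genes), and among the 7 ranked genes higher with Gpnmb that had a promoter each was in 1. The 250 bases before the start are shown for Ctsd (chr7:142387828-142388077, minus strand), with matches in capitals beginning 245 and 98 bases before the start, and for Gpnmb (chr6:49036268-49036517, plus strand) and Cd63 (chr10:128909095-128909344, plus strand), which were high in the same cells and had 0 matches.
Ctsd: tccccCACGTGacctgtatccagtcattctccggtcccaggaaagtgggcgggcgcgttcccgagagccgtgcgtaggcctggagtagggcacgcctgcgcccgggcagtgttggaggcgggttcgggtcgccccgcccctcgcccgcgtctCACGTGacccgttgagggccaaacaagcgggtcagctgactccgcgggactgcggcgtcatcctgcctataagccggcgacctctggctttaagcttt
Gpnmb: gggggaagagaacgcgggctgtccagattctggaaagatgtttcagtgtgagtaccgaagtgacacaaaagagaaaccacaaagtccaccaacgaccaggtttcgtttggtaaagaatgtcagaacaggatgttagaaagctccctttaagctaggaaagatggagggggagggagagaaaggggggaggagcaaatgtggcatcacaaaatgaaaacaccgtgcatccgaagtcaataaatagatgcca
Cd63: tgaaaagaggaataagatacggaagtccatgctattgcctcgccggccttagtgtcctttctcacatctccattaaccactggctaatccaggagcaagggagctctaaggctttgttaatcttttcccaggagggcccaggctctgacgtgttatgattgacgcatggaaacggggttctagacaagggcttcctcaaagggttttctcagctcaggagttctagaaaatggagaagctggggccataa
The ratio between members with and without Gpnmb was 0.838 to 2.04 in the 10 lysosome genes with CACGTG (median 1.25) and 0.405 to 2.15 in the 16 without (median 1.2), so these ranges overlapped. A match is only a run of letters in this window. Mitf RNA itself was at 42.4 and 36.7 CPM in members with and without Gpnmb, a ratio of 1.16 (0.775 to 1.73). Of this family only Mitf RNA is given here. The part of these factors in the split by Gpnmb was not tested.

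Control members without Gpnmb had more RNA of another set. Fcna was at 1126 against 164 CPM, 6.85-fold lower (5.94 to 7.92) in cells with Gpnmb, and Ccr3 at 357 against 48.4 CPM, 7.39-fold lower (5.69 to 9.73). Both were broad: Fcna was in 56 and Ccr3 in 60 of the 83 cells, and no cell held more than 9.31% of their UMIs. Cx3cr1 was 1.82-fold (1.62 to 2.06) and Gfra2 5.84-fold (2.23 to 19.3) lower with Gpnmb. The butyrophilin-like gene Btnl2 (13.7-fold), the adhesion receptor Adgre4 (6.78-fold), Folr2 (8.18-fold) and C6 (7.99-fold) were lower as well. Ccl24, an eotaxin, was 17.7-fold lower, with 32.9% of the UMIs of the cells without Gpnmb in 1 cell.

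Of 16 inflammatory genes 10 were at least 1.5-fold lower in cells with Gpnmb, where 17.3% of all genes were (median -0.78 against -0.15). The costimulatory receptor Cd86 was 3.37-fold (2.55 to 4.51), Il1b 3.52-fold and the inflammasome substrate Il18 2.97-fold lower. The UMIs of Ccl2 and Cxcl10 in cells without Gpnmb lay mostly in 1 cell (66.1% and 90.7%). Antigen presentation genes of class II differed little, with H2-Aa at 0.977 times and Cd74, the invariant chain, at 0.882 times. Ms4a7 was at 818 and 745 CPM, but nothing can be read from this, since cells without Gpnmb entered almost only through Ms4a7.

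**Figure D3:**
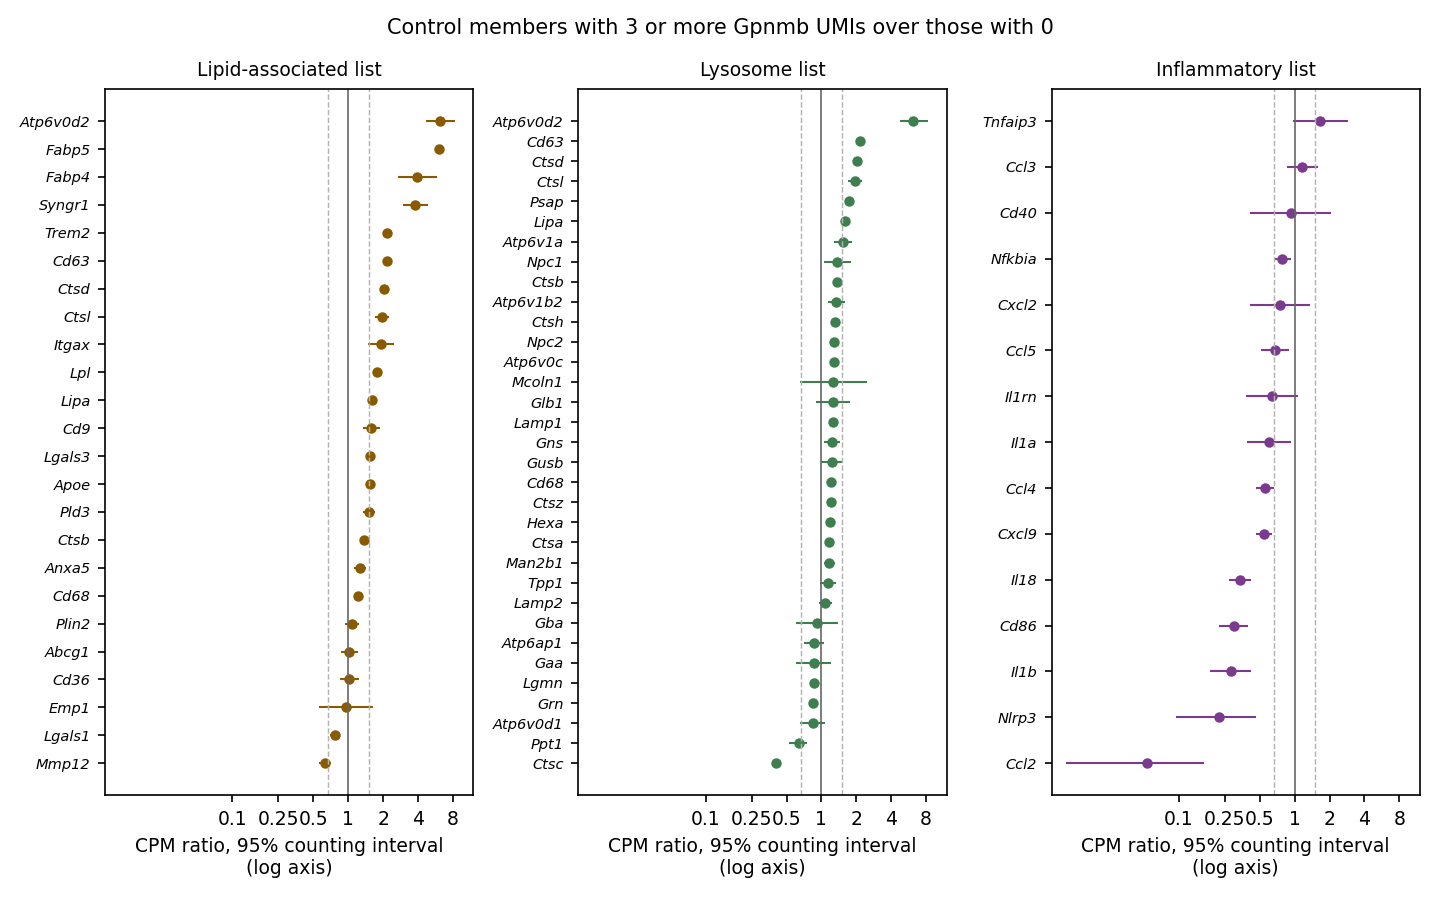
CPM ratio (log axis) of control members with 3 or more Gpnmb UMIs over those with 0 for the genes of 3 lists, with 95% counting intervals; the solid line marks 1 and dashed lines 1.5-fold either way, and genes with under 20 UMIs and some others are left out. Fabp5 and Atp6v0d2 lead the lipid-associated list at 6.12 and 6.22, and Ccl2, Nlrp3, Il1b and Cd86 are at the low end of the inflammatory list.

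The same split in the GS-KO library compared only 4 with 7 cells. Fabp5 was at 4910 against 357 CPM (13.8-fold, 9.71 to 20), Trem2 2.48-fold, Ctsd 2.55-fold and Lyz2 4.55-fold higher with Gpnmb. Of 18 lipid-associated genes 12 were at least 1.5-fold higher, where 16.7% of all genes were (28.1% were lower). MHC class II genes had a median of -1.39, against -0.18 in the control split, and H2-Aa was 3.16-fold lower (2.72 to 3.68) with Gpnmb; whether these sizes differ between the libraries was not tested. The 4 cells with Gpnmb were themselves unlike: GS-KO member 5 held 29 Gpnmb, 28 Spp1 and 0 H2-Aa UMIs, members 2 and 6 held 22 and 5 Gpnmb UMIs together with 79 and 60 of Vsig4 and 111 and 40 of Cd207, the lectin langerin, and member 12 held 9 Gpnmb with 182 H2-Aa UMIs.

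Clec4f within the limit of the rule tracked Kupffer genes only in part. Between the 100 control members with 0 Clec4f UMIs and the 56 with at least 1, 8 of 21 Kupffer genes were at least 1.5-fold lower and 0 higher (7.09% of genes were lower and 7.95% higher), with a median of -0.32. Of 13 genes of monocyte origin 6 were higher. The lipid-associated list was at a median of 0.08, with 1 gene each way. Members with 0 Clec4f UMIs were shallower, at a median of 15662.5 against 19946 UMIs. The part of depth in this comparison was not tested.

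The comparison of the libraries asked how members differ with Cre delivered to floxed Glul. Glul (chr1:153899944-153909723, plus strand) was at 225 CPM in GS-KO and 245 in control members, a ratio of 0.920 (0.658 to 1.26), and had a UMI in 13 of 13 and 136 of 156 cells. GS-KO members thus held Glul RNA. Which exons were floxed was not given in the sources used here, so reads outside the deleted part cannot be told apart. Of 8214 genes with at least 20 UMIs, 520 (6.33%) were at least 2-fold higher and 1583 (19.3%) at least 2-fold lower in GS-KO members. Of these genes 575 had 0 UMIs in GS-KO members, whose summed depth was much the smaller. The median log2 ratio was -0.15, or -0.04 with genes at 0 set to their bound. At 1.5-fold, 15.3% of genes were higher and 30.4% lower.

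Early response genes, transcription factors and regulators induced within minutes by many stimuli, were higher in GS-KO members. Of 19 such genes 15 were at least 1.5-fold higher and 0 lower (median 1.45), where 15.3% and 30.4% of all genes were. Fos was at 2086 (1884 to 2304) against 535 (509 to 562) CPM, a ratio of 3.90 (3.48 to 4.36). The 13 GS-KO cells held between 0 and 119 Fos UMIs with a median of 14, against a median of 7 and at most 46 in control members, so the groups of cells overlapped. Egr1 was 4.67-fold (3.55 to 6.10), the phosphatase Dusp1 3.77-fold and Klf6 2.95-fold higher. Ier3, a regulator of cell survival, was 4.42-fold higher and detected in 9 of 13 cells. Ier2 was 6.42-fold higher, with 42.1% of GS-KO UMIs in 1 cell.

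The list as a whole was above the control median in 8 of 13 GS-KO members, at a median of 63.4 against 41.5 UMIs per 10000. Clec4f-positive GS-KO cells were higher too, with 12 of 20 genes and a median of 0.72 (10.4% of all genes were higher there); Fos had a ratio of 2.90. Of 11 heat shock genes 5 were at least 1.5-fold higher and 0 lower in members, where 15.3% and 30.4% of all genes were. Hspa1b was 8.86-fold higher with 64.5% of its UMIs in GS-KO member 11, and 7.21-fold higher in Clec4f-positive cells. The median mitochondrial share was 3.43% in control and 2.42% in GS-KO members. Over all barcodes before filtering it was 5.61% (5074 control barcodes) and 25.3% (1366 GS-KO barcodes). The part of this share in these values was not tested.

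Interferon response genes were lower in GS-KO members. Of 36 genes 23 were lower by at least 1.5-fold, 1 was higher and 3 had 0 UMIs (median -0.73, or -0.66 with bounds). Over all genes 30.4% were lower and 15.3% higher. Ifi27l2a, a mitochondrial interferon-induced protein, was at 563 (460 to 682) against 1146 (1108 to 1186) CPM, 2.04-fold lower (1.68 to 2.50). Irf7, the master regulator of type I interferon, was 3.38-fold lower (1.76 to 7.43). Rtp4, a chaperone for receptors induced by interferon, rested on 5 GS-KO UMIs and was 6.13-fold lower (2.61 to 19.0). Ifit3 had 0 UMIs against 118, at least 2.52-fold lower. The exception was Irf9, a subunit of the interferon-activated factor, at 1.6-fold (0.707 to 3.17) higher on 9 GS-KO UMIs.

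Cell by cell, 11 of 13 GS-KO members lay below the control median of the interferon list, at a median of 26.9 against 39.3 UMIs per 10000. MHC class I genes were below their control median in 11 of 13 cells as well. The class I heavy chains H2-K1 and H2-D1 were 1.42-fold and 1.31-fold lower and B2m, their light chain, 1.46-fold lower. Of 19 class I genes 6 were at least 1.5-fold lower, a share near the 30.4% of all genes, and the list's median was -0.45 against -0.15 over all genes. In Clec4f-positive cells the interferon list was also lower in the GS-KO library (16 of 38 genes, median -0.52, where 21.1% of genes were), with Irf7 at 1.5-fold and Rtp4 at 1.16-fold lower. MHC class II genes were near equal between member groups, with 0 of 10 higher and 1 lower; H2-Aa was at 7785 against 6775 CPM.

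**Figure D4:**
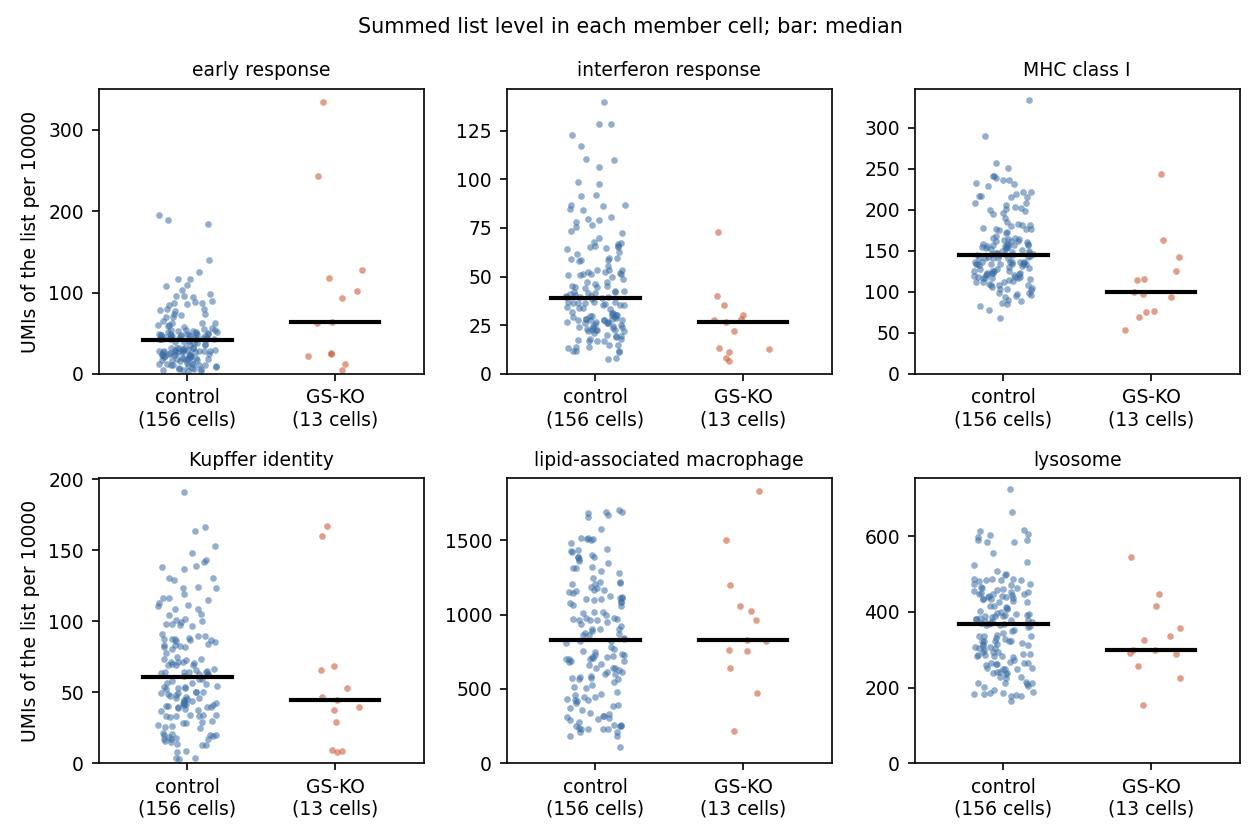
Each point is the summed UMIs of a list per 10000 UMIs of 1 member cell (vertical) in the control and GS-KO libraries, with the median as a bar; genes of the rule are left out of the lists. GS-KO cells lie mostly below the control median for the interferon response and MHC class I lists (11 of 13 each), while the lipid-associated list has nearly equal medians of 831 and 832.

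Kupffer genes were lower in GS-KO than in control members. Of 21 genes 14 were lower by at least 1.5-fold, 4 were higher and 3 had 0 UMIs (median -1.08, or -0.86 with bounds). Over all genes 30.4% were lower and 15.3% higher. Cd5l was at 107 (65.5 to 166) against 976 (941 to 1013) CPM, 9.10-fold lower (5.88 to 14.9), and was detected in 3 of 13 against 100 of 156 cells. A GS-KO member held at most 9 of its UMIs, against a median of 1.5 and at most 269 in control members, so the low control cells overlapped with the GS-KO cells. Hpgd, which degrades prostaglandins, was 3.91-fold, Timd4 5.33-fold, the fatty acid carrier Fabp7 4.0-fold and Slc40a1, the iron exporter, 2.06-fold lower. With members of 0 Clec4f UMIs in both libraries the list's median was -1.06 with 12 genes lower. In Clec4f-positive cells the same list had a median of 0.10 and Cd5l a ratio of 0.980 (0.946 to 1.02).

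Of the 4 Kupffer genes that were higher, Cd207 and Vsig4 rested on few cells. Cd207 was at 809.6 against 213 CPM, all of it in GS-KO members 2 and 6, with 111 and 40 UMIs. Vsig4 was 1.77-fold higher, with 79, 60 and 9 UMIs in members 2, 6 and 3 and 0 in the other 10. The list as a whole was below the control median in 9 of 13 GS-KO members.

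Lipid-associated genes did not move together. Of 25 genes 2 were at least 1.5-fold higher and 7 lower (median -0.27, against -0.15 over all genes). Of all genes 15.3% were higher and 30.4% lower, so neither share was larger in the list. Lpl was the clearest, at 472 (378 to 581) against 1613 (1567 to 1660) CPM, 3.42-fold lower (2.77 to 4.27), and at a median of 8 against 16 UMIs per cell. Itgax was 3.00-fold, Cd9, a tetraspanin, 2.15-fold, Cd36 2.30-fold and Atp6v0d2 3.83-fold lower. Trem2 was 1.36-fold (1.16 to 1.61) and Fabp5 1.2-fold (1.07 to 1.33) lower, and Apoe 1.18-fold higher. The direction of Fabp5 turned with C1q of at least 2% (log2 ratio 1.14), with a mean over cells (0.26) and after thinning (0.26). Gpnmb, which the rule used, was 1.89-fold lower. Cell by cell the list was above the control median in 7 and below it in 6 GS-KO members. The lysosome list was below in 10 of 13 (300.3 against 369 UMIs per 10000), but its 7 lower genes of 34 were a smaller share than the 30.4% of all genes, and its median of -0.15 was that of all genes.

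Genes of immunosuppression and alternative activation had no common direction, with 4 of 18 at least 1.5-fold higher and 4 lower (median 0.02). Over all genes 15.3% were higher and 30.4% lower. Axl, a receptor for dying cells bound to Gas6, was at 145 against 456 CPM, 3.15-fold lower (2.15 to 4.79), and was detected in 10 of 13 and 153 of 156 cells. The mannose receptor Mrc1 was 1.2-fold (0.915 to 1.6) and Tgfb1 1.17-fold (0.871 to 1.61) lower, both with intervals across 1. Hmox1, haem oxygenase, was 1.30-fold lower. The lectin Clec10a was 2.69-fold higher with 61.9% of its UMIs in 1 cell, and Ccl24 2.25-fold higher with 93.9% in 1 cell. Arg1, arginase, had 12 UMIs in 2 GS-KO cells and 0 in control members, at least 62.5-fold higher by the floor of 3 UMIs but carried by those 2 cells.

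Chemokine and receptor genes were split, with 10 of 22 at least 1.5-fold higher and 3 lower (median 0.50), where 15.3% and 30.4% of all genes were. Ccr1, a receptor for inflammatory CC chemokines, was at 188 against 35.0 CPM (5.36-fold, 3.54 to 7.94) and was detected in 6 of 13 and 49 of 156 cells. C5ar1, the receptor for complement C5a, was 2.13-fold higher and detected in 12 of 13 cells. Ccr3 was 5.17-fold lower (2.5 to 12.9), Fcna 2.97-fold lower, and Cx3cr1 1.23-fold higher. Single cells made other high values. GS-KO member 4 held 272 of 274 Ccl12 UMIs, all 208 Cxcl10 UMIs and 97.0% of those of Iigp1, an interferon-induced GTPase. Gdf15, a stress cytokine, was 4.24-fold higher (3.45 to 5.19) on 123 UMIs in 4 of 13 cells, against 43 of 156 control cells. Fcgr2b, the inhibitory IgG receptor, was 3.32-fold higher (2.22 to 4.83) in 8 of 13 cells.

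Of 4 MS4A family genes tested outside the rule, 2 were at least 1.5-fold higher and 1 lower (median 0.39). Over all genes 15.3% were higher and 30.4% lower. Ms4a6b was 1.87-fold (1.35 to 2.53) and Ms4a6d 1.53-fold higher. Ms4a6c was at 1.12-fold (0.903 to 1.37), beside Ms4a7 of the rule at 1.65-fold. Further genes had few or no UMIs in GS-KO members. Sipa1l1, a GTPase-activating protein, Crip2, a LIM-domain protein, and the Src-family kinase Fgr had 0 UMIs against 219, 201 and 171 in the control, at least 4.67-fold, 4.29-fold and 3.65-fold lower. The methyltransferase Eef1akmt1 and the transcript Gm34425 were at least 2.82-fold and 2.71-fold lower. Tspan15, a tetraspanin, had 1 UMI against 218 (14-fold lower, 2.48 to 554). In Clec4f-positive cells Sipa1l1, Crip2 and Fgr had ratios of 0.897, 1.09 and 0.883. Of 13 genes of glutamine and glutamate use, Glul included, 5 were at least 1.5-fold higher and 3 lower (median -0.09). At that fold 15.3% of all genes were higher and 30.4% lower. The amino acid transporter subunit Slc3a2 had a ratio of 0.93 (0.701 to 1.21).

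**Figure D5:**
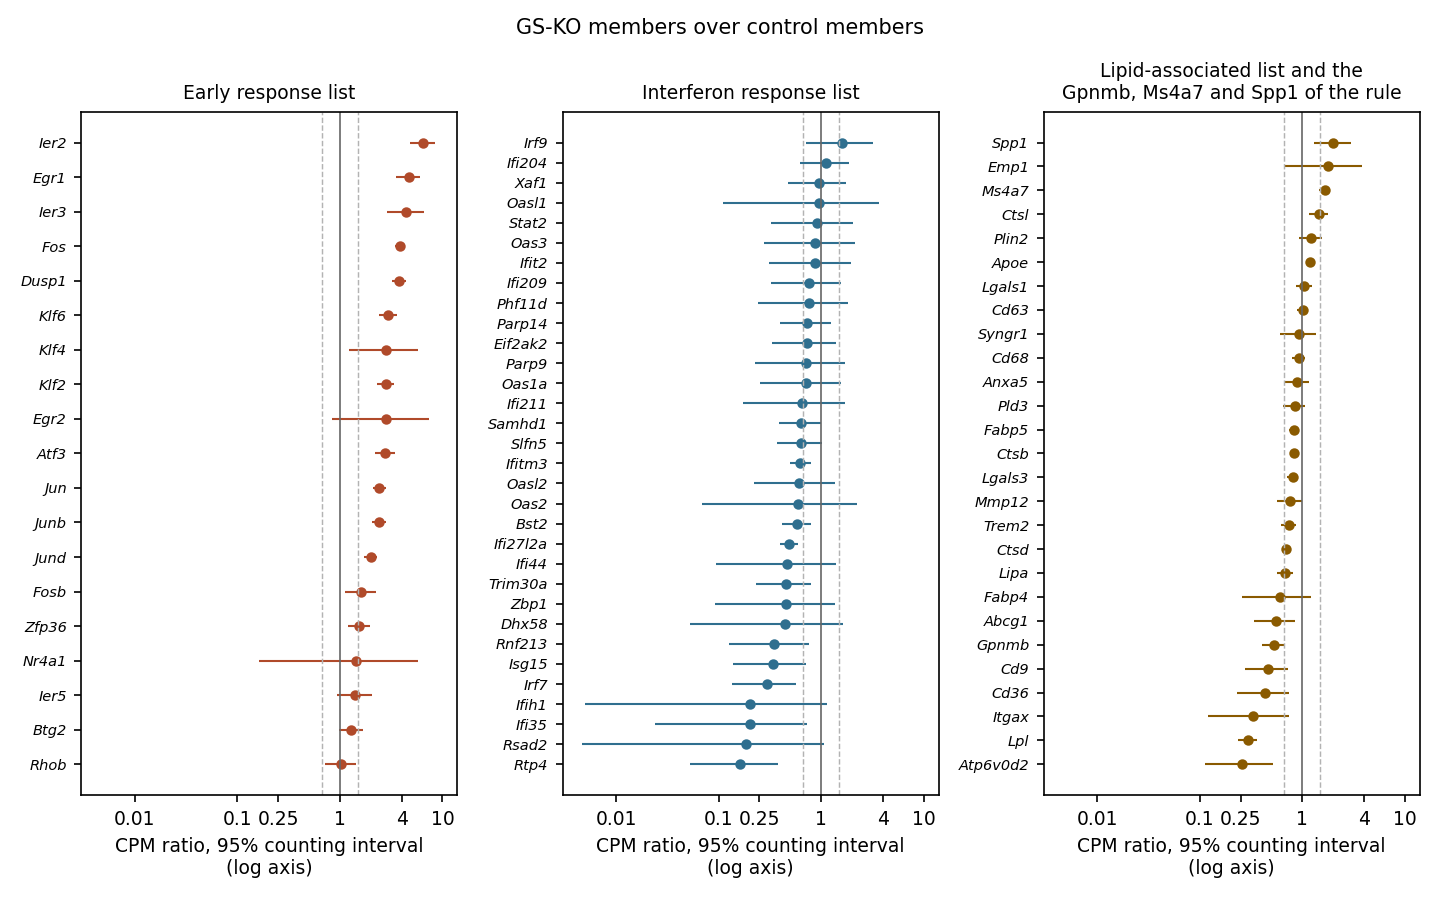
CPM ratio (log axis) of GS-KO over control members for the early response and interferon lists and for the lipid-associated list joined with Gpnmb, Ms4a7 and Spp1, with 95% counting intervals; genes at 0 UMIs in either library or under 20 UMIs in all, and some others, are left out. The early response genes lie at or above 1 up to Ier2 at 6.42, most interferon genes lie below 1, and Lpl and Atp6v0d2 are lowest in the lipid-associated panel.

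RNA of other cell types was low in members, but not at 0. Hepatocyte genes summed to 1341 CPM in control and 1115 in GS-KO members. Of 15 tested 14 were at least 1.5-fold lower in the GS-KO library (median -2.25, or -1.12 with bounds), where 30.4% of all genes were. The sums differed by less than 1.5-fold, so genes other than these 14 held part of the GS-KO sum. Neutrophil genes summed to 135 CPM in control members with 70.7% in 1 cell and 69.7 in GS-KO members, and B cell genes to 79.3 (37.2% in 1 cell) and 48.3. Endothelial genes summed to 46.3 and 10.7, T cell genes to 17.2 and 0, and dividing-cell genes to 48.4 and 85.8, the latter with 93.8% in 1 cell. Their part in the differences between the libraries was not tested.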

How the data were processed

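The authors deposited 1 matrix of raw UMI counts per gene and barcode for each library. Cell Ranger and the mm10 genome were used, per the submitters' processing notes, and the matrix headers carried software version 3.1.0. The labels' protocols name 3PrimeV2 chemistry and, in 1 place, a single-nucleus assay; which applies was not settled. Promoters are RefSeq's, and gene positions those of GENCODE M21 (GRCm38), where 32158 of 32285 identifiers were found. Members were found by the rule in the text, and UMIs were summed over cells per library. CPM carry exact Poisson intervals, shares exact Clopper-Pearson intervals and CPM ratios conditional binomial intervals, all at 95%. Cells are not replicates, so no p-value was computed. For 37 gene lists the median log2 CPM ratio (prior count 0.5) was taken over genes with at least 20 UMIs in both groups together, leaving out genes of the rule, and genes at least 1.5-fold apart were counted. The members and lists were chosen with earlier results of these data known.

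Named genes were the 12 higher and 12 lower by the interval bound nearest 1: between libraries with at least 30 UMIs and a 2-fold ratio, and for members over Clec4f-positive cells with at least 50 control UMIs and a 2-fold ratio the same way in both libraries. Mitochondrial, ribosomal, haemoglobin, immunoglobulin, Y-linked, hepatocyte and rule genes, Xist and Tsix were left out, as were genes over 5 times higher outside C1q cells. Label markers, Glul, Cx3cr1, Ccr3, Gfra2 and leading list genes were named besides. The same ranking for the split by Gpnmb, and other genes such as Arg1, Gas6, Gdf15 and Fcgr2b, were chosen after the values were seen. Scrublet (expected rate 5%) called 24 control and 7 GS-KO doublets, 1 of them a control member; all were kept. The computation was tested on simulated counts. Sums and intervals used Python 3.11.15 with scipy 1.17.1 and numpy 2.4.6, doublet calls scanpy 1.11.5, tables pandas 2.3.3 and plots matplotlib 3.10.9. There were 15 planned and 5 added alternatives. Some genes of the lists are not reported here by name, although the list counts and medians include them.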

Additional observations from a re-analysis of the deposited data

How the results depend on the processing

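With 13 GS-KO cells from 1 mouse, a single cell can make a gene's value, and genes under 20 UMIs entered no list or count (Arg1, with 12, was named apart). No paired analysis was possible because each group has 1 mouse and the labels pair no samples. Over 17 alternatives the list medians kept their sign: interferon response -1.11 to -0.65, early response 0.85 to 1.64, Kupffer identity -1.99 to -0.58 and MHC class I -0.75 to -0.30. The monocyte, MHC class II, immunosuppressive, inflammatory, glutamine, glycolysis, complement and Fc receptor (kept in 5 of 17) and macrophage transcription factor medians changed sign under some, as did the ratios of Fabp5, Gpnmb and Glul.

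Requiring 0 Clec4f UMIs left 100 control members (3.05% of kept and 9.14% of non-dividing C1q cells). C1q of at least 2% left 82 control (2.50% and 12.1%) and 6 GS-KO members (0.906% of kept), and turned Spp1 to a log2 ratio of -5.99, since the cell with its UMIs was left out. Applying the rule after thinning to 3000 UMIs left 90 control (3.47% and 8.06%) and 8 GS-KO members. Thinning before summing gave 275 genes at least 2-fold higher and 684 lower in GS-KO members, 8 Kupffer and 15 interferon genes lower, and Spp1 at -0.44, with fewer genes tested. A minimum of 50 UMIs gave 229 higher and 797 lower. In the split by Gpnmb, thinning gave 97 genes higher, 268 lower and 6 inflammatory genes lower. The Kupffer median of that split was -0.78 before and -0.27 after thinning. Its inflammatory median stayed between -1.03 and -0.68 over 2 alternatives.

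Some values carried by 1 or 2 cells reversed without them, while Ccl12 (lowest log2 ratio 4.19) and Hspa1b (1.80) did not. Without GS-KO member 4, Ccl12 rested on 1 UMI each in GS-KO members 7 and 9 and 1 in control member 59. Nothing can be read from its ratio on so few UMIs. Log2 ratios under -5 rest on 0 GS-KO UMIs and are set by the prior count of 0.5, so that only their sign can be read. With members under 3 Gpnmb UMIs only, an alternative chosen after seeing the data like the next ones, Cd207 had a log2 ratio of -8.32 and Spp1 of -5.86. Without the GS-KO members richest in Ccl12 and Ighg2b, Cxcl10 was at -7.61 and Iigp1 at -2.00. Leaving out each GS-KO member in turn, the lowest values were -7.62 for Cxcl10, -2.14 for Iigp1 and -7.85 for Spp1.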
